A study of Mus musculus with 12 samples.

Results

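The genes described here encode the proteins of the mitochondrial ribosome. They were chosen by name, as all probe sets whose single gene symbol began with Mrpl (large subunit) or Mrps (small subunit) followed by a number. This gave 74 genes with 127 probe sets, among 12394 genes with 20393 probe sets that carried 1 symbol. Of the 74 genes, 47 were large subunit genes with 88 probe sets and 27 were small subunit genes with 39. All 74 had at least 1 probe set above the filter on low values, described below, as did 7945 of all genes. Where a gene had several, the probe set with the highest mean over the arrays stood for it.

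The cells were T cells carrying the 5CC7 transgenic receptor, specific for a peptide of moth cytochrome c. The labels say that these cells were transferred into B10.A recipients through the tail vein and that peptide in saline was injected by the same route. The peptide was either MCC (a strong agonist for this receptor) or 102S (a weak agonist), each at a dose of 2 µg or 0.2 µg. Cells were sorted by flow cytometry from pooled lymph nodes 48 h later, and total RNA was hybridised to Affymetrix mouse arrays, 3 per combination of peptide and dose and 12 in all. How many animals each pool held, and the age and sex of the mice, are not given in the sources used here. No unstimulated 5CC7 cells were analysed here, so each value compares stimulated cells with stimulated cells. The labels do not say that replicates came from separate animals, and p-values therefore measure the spread between these samples only. Replicate 1 was female-type in each group and replicates 2 and 3 were not, as described below, so replicate 1 came from other animals. The spread between replicates 2 and 3 may be technical. In sorted populations of this kind, fewer cells of a type and less RNA per cell cannot be told apart.

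Mitochondria have ribosomes of their own, which translate the few respiratory chain and ATP synthase subunits encoded in mitochondrial DNA. All proteins of this ribosome are encoded in the nucleus, made in the cytosol and imported, and they assemble on mitochondrial ribosomal RNA. T cells that have met antigen enlarge and divide, and this growth is known to draw on mitochondrial biogenesis and translation. Many of these proteins have a bacterial counterpart, and the others, mostly those with the higher numbers in the names, were added during the evolution of the mitochondrial ribosome. A few names mislead: Mrps18a and Mrps30 sit in the large subunit, and Mrps36 is also known as a subunit of the 2-oxoglutarate dehydrogenase complex.

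The arrays of a group were not alike. Xist, expressed from the inactive X chromosome, was at 10.35 log2 or more on each group's replicate 1 array and at 2.78 or less on the 8 others, so replicate 1 was female-type throughout. The gap between the 3′ and 5′ β-actin control probe sets (3′ minus 5′), which widens as RNA is degraded or incompletely copied, ran from 0.50 to 0.72 log2 with 2 µg of MCC. It ran from 0.74 to 2.33 with 0.2 µg of MCC, from 0.81 to 1.62 with 2 µg of 102S and from 0.76 to 2.35 with 0.2 µg of 102S. All 8 T cell markers were above the filter, with a summed level between 14.1 and 14.4 log2 on all 12 arrays. Among them Cd5 varied most in its group means, from 10.53 with 2 µg of MCC to 9.03 with 0.2 µg of 102S. Markers of CD8 T and NK cells were above the filter in 6 of 7, all but Ncr1. They summed to between 8.45 and 8.70 at the high dose of MCC, 8.78 and 9.18 at its low dose, 9.21 and 9.30 at the high dose of 102S, and 9.80 and 10.03 at its low dose. Klrd1 varied most, with group means of 4.65, 6.27, 7.33 and 8.63 in the same order. Cd8a, Cd8b1, Gzma and Prf1 were also highest with 0.2 µg of 102S, and Nkg7 was highest with 0.2 µg of MCC at 6.60. Of 6 B cell markers 3 were above the filter, summing to between 10.65 and 10.97 in the MCC groups, 11.1 with 2 µg of 102S and between 11.4 and 11.6 with 0.2 µg of 102S, while Ms4a1 and Cd79a were under it. Ighm carried that sum, highest with 0.2 µg of 102S at 11.45 and lowest with 0.2 µg of MCC at 10.47. The other 2 above the filter were higher in the means of the MCC groups, with Cd74 at 7.23 in both MCC groups and at 6.04 and 5.84 with 2 and 0.2 µg of 102S, and Cd79b at 5.23 and 5.73 against 4.86 and 4.47. Myeloid cells had 2 of 7 markers above the filter, with Cd68, Itgam, Adgre1, Cd14 and Itgax under it, and both measured erythroid markers were under it. The part of these differences in the results below was not tested.

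The members were measured well above the filter, which lay at a mean of 4.48 log2. Their 12-array means spanned 6.20 to 10.7 for the large subunit and 6.93 to 9.90 for the small subunit. Most varied little between groups: the range of the 4 group means had a median of 0.41 log2 in the large and 0.34 in the small subunit, beside a median spread between replicates of 0.23 and 0.22 (SD). The range was over 0.5 in 22 members and over 1 in 5, namely Mrpl45, Mrps6, Mrpl27, Mrps28 and Mrpl38. The map of all members by array shows these 5 as bands that follow the groups, while most other genes follow single arrays.

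**Figure D1:**
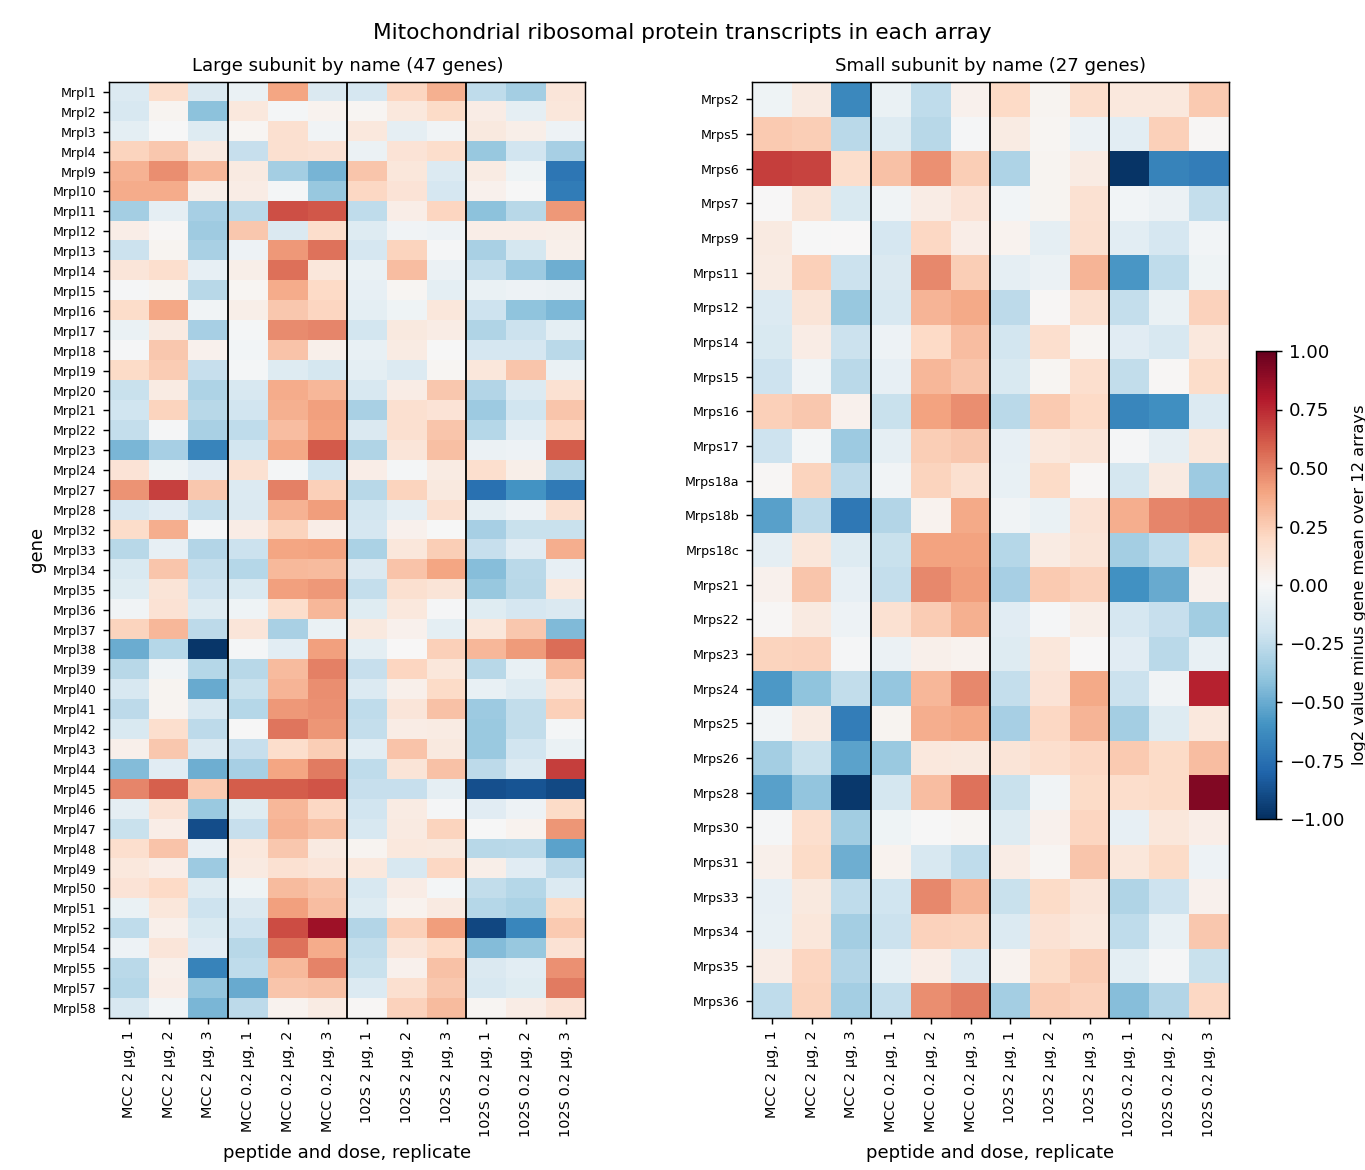
Colours give each member's log2 value on each array minus its mean over the 12 arrays, from -1 (blue) to 1 (red), for the 47 large and 27 small subunit genes (rows) and 12 arrays (columns, 3 per group). Mrpl45, Mrps6 and Mrpl27 are high on all MCC arrays or nearly so and low on all 3 arrays with 0.2 µg of 102S, and many other genes are high on replicates 2 and 3 with 0.2 µg of MCC and low on its replicate 1.

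Members were most often highest with 0.2 µg of MCC. That group held the highest mean of 47 of the 74 members (63.5%), against 24.1% of all genes tested. The lowest mean lay with 0.2 µg of 102S in 35 members (47.3%, against 29.5% of genes) and with 2 µg of MCC in 33 (44.6%, against 35.1%). No member had its lowest mean with 2 µg of 102S, where 12.01% of all genes did. These are counts over genes that share arrays, so they describe these 12 arrays.

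The arrays of a group differed in this. On each array, the median over the 74 members of the deviation from the member's own mean was taken. With 0.2 µg of MCC it was -0.13 on replicate 1, 0.32 on replicate 2 and 0.29 on replicate 3. With 2 µg of MCC it was -0.07, 0.11 and -0.26. So at the low dose of MCC replicate 1 lay apart from the other two, and at the high dose the 3 arrays were spread about evenly. The corresponding medians with 2 µg of 102S were -0.14, 0.10 and 0.15, and with 0.2 µg of 102S they were -0.21, -0.13 and 0.06. The female-type replicate 1 lay below the other two arrays in 3 groups and between them with 2 µg of MCC, and the ranges of all 4 groups overlapped. The median over all genes tested stayed between -0.12, on replicate 3 with 2 µg of MCC, and 0.05. The 2 arrays with the highest member medians, replicates 2 and 3 with 0.2 µg of MCC, had β-actin differences of 1.78 and 2.33. Replicate 3 with 0.2 µg of 102S, where that difference was widest at 2.35, had a member median of 0.06. The part of RNA quality and of the source of replicate 1 in this order was not tested.

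**Figure D2:**
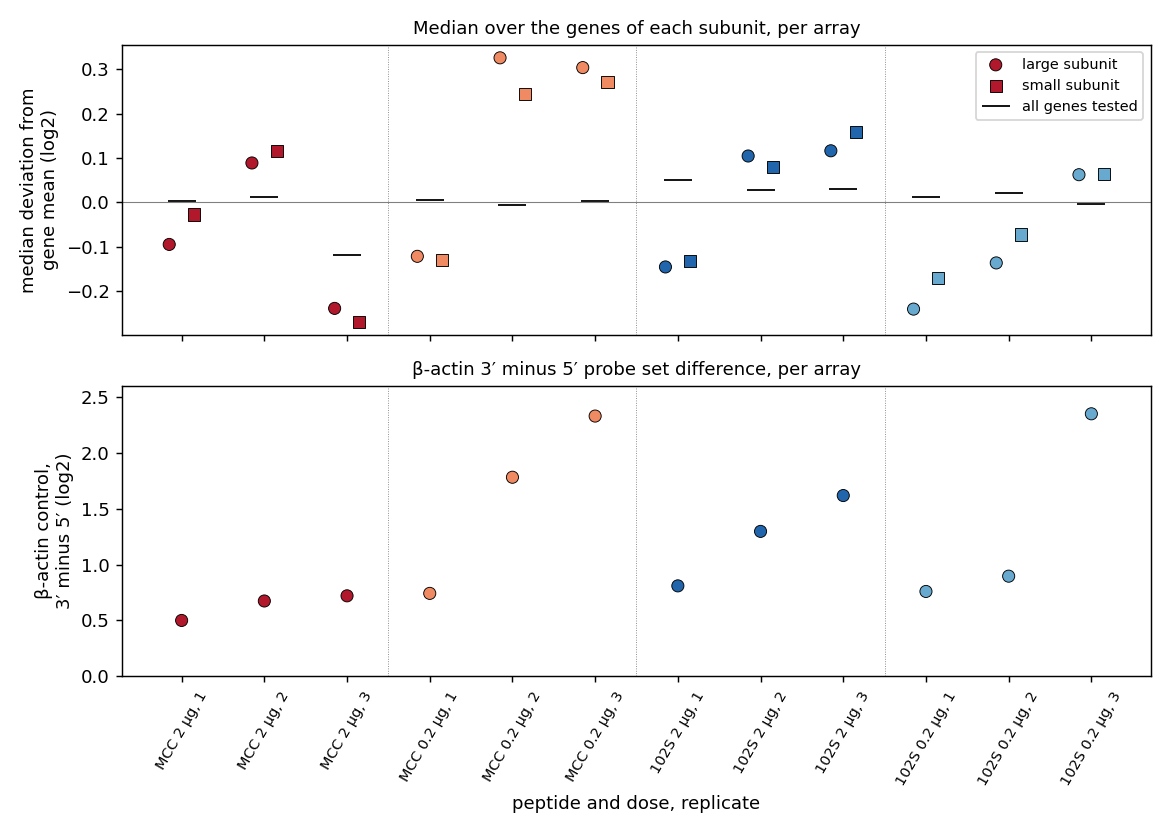
The upper panel plots, for each of the 12 arrays, the median log2 deviation from the gene's own mean over the large (circles) and small (squares) subunit genes, with a bar for all genes tested. The lower panel plots the β-actin gap, 3′ minus 5′ (log2). Both subunits lie side by side on every array, and replicates 2 and 3 with 0.2 µg of MCC are highest in the upper panel.

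The subunits moved together. The large subunit median minus the small subunit median lay between -0.07 and 0.08 log2 on the 12 arrays and was positive on 5 of them. Across the 12 arrays, the median pairwise correlation was 0.45 among large subunit genes, 0.45 among small subunit genes and 0.46 between the subunits, against 0.03 over all pairs of genes tested. With group means removed the median was 0.60 over all pairs of members, against 0.08 over all genes, so members varied together among replicates of 1 group too. These correlations describe 12 arrays that share RNA quality and replicate source, and they carry no test.

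At the low dose, 8 members were higher with MCC than with 102S: Mrpl45, Mrps6, Mrpl27, Mrps16, Mrpl14, Mrpl16, Mrpl48 and Mrps22. The other 66 did not pass the test, and none was lower. The share was near that of all genes, of which 9.09% were higher and 7.02% lower (limma, Benjamini-Hochberg adjusted over all probe sets, threshold 0.05). At an unadjusted p under 0.05 there were 22 members and 2418 genes in either direction. The 74 differences had a median of 0.22 log2, beside -0.01 over all genes, and 58 were positive, beside 48.4% of all genes.

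Mrpl45 differed most. Its protein is related to the import motor protein TIM44, lies near the exit of the peptide tunnel and holds the ribosome to the inner mitochondrial membrane. It read 8.75, 8.75 and 8.78 log2 on the 3 arrays with 0.2 µg of MCC and 7.27, 7.28 and 7.24 on those with 0.2 µg of 102S. The groups were far apart and each was tight. MCC was higher by 1.50 ± 0.11 log2 (SE), or 2.82-fold, with an adjusted p of 3.64e-06 in limma, and the adjusted p stayed at 0.000177 or less under every alternative run.

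Mrps6, a small subunit protein with a bacterial counterpart, read 8.34, 8.51 and 8.29 with MCC and 7.07, 7.38 and 7.36 with 102S. Again no array of one group reached the other. The difference was 1.11 ± 0.17 log2, or 2.16-fold (limma adjusted p = 0.000812). Mrpl27, which lies near the peptidyl transferase centre where peptide bonds are made, read 9.14, 9.78 and 9.52 with MCC and 8.54, 8.68 and 8.57 with 102S. Its lowest MCC array was replicate 1, and it was still above all 3 arrays of 102S. The difference was 0.88 ± 0.18 log2, or 1.84-fold (limma adjusted p = 0.00534). These 3 calls held in all 18 alternatives run.

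The promoters of these 3 genes, and of Mrps26, which moved the other way at the high dose, are printed because the first 3 had the largest differences called and Mrps26 the one called lower. Each is the 250 bases before the RefSeq start on the assembly GRCm38.p6, with matches to the motifs searched below in capitals. The windows are chr11:97315466-97315715 for Mrpl45, chr16:92058086-92058335 for Mrps6, chr11:94653541-94653790 for Mrpl27 and chr2:130563507-130563756 for Mrps26, all on the plus strand.
Mrpl45: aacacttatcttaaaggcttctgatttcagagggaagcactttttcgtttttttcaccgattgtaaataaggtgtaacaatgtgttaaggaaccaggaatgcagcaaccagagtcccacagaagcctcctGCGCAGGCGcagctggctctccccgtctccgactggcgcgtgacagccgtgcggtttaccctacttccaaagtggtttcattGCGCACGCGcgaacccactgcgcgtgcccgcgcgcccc
Mrps6: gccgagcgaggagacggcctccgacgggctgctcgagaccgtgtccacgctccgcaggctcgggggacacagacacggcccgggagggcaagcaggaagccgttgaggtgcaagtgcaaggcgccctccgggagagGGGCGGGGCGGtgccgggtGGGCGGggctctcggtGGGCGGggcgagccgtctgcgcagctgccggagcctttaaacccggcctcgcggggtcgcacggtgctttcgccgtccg
Mrpl27: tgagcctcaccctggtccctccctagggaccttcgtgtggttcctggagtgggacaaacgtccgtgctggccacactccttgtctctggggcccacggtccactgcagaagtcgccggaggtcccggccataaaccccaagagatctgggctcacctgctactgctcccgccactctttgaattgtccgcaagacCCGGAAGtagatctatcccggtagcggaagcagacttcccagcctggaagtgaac
Mrps26: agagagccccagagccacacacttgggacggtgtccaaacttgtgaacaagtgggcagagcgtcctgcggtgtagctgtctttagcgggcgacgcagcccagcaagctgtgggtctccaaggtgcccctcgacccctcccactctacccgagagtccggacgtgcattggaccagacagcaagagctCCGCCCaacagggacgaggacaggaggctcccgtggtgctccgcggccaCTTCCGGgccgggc

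In capitals, Mrpl45 has 2 matches to the motif of NRF1, a regulator of nuclear genes for mitochondrial proteins, starting 120 and 38 bases before the start. Mrps6 has 4 matches to the SP1 motif, 2 of which overlap, and Mrpl27 has 1 match to the ETS motif bound by GABPA, 55 bases before the start. Mrps26 has 1 SP1 and 1 ETS match, both on the other strand. The motifs were searched on both strands as GCGCANGCG for NRF1, CCGGAAG for ETS, AANATGGCG for YY1, GGGCGG for SP1 and CACGTG for the E-box bound by MYC. Promoter windows were found for 65 members, 71 windows in all. NRF1 matches were in 16.9% of them, against 5.16% of all 32851 windows of the table, and in 21.7% of large and 8% of small subunit windows. ETS matches were in 22.5%, against 6.91%, SP1 matches in 52.1% against 32.7%, E-box matches in 9.86% against 6.02% and YY1 matches in 2.82% against 1.12%. Of the 9 members that passed a test in any comparison, 1 had an NRF1 match, 5 an ETS match, 6 an SP1 match and 0 an E-box or YY1 match. A match describes the letters of these windows and shows no binding.

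The other 5 members called at the low dose differed less. Mrps16, mutated in a human respiratory chain deficiency, read 9.68, 10.31 and 10.37 with MCC and 9.25, 9.29 and 9.77 with 102S, and the groups overlapped. The difference was 0.68 ± 0.20 log2, or 1.61-fold (limma adjusted p = 0.0422). Mrps22, mutated in a similar human disease, read 7.78, 7.89 and 7.98 with MCC and 7.46, 7.41 and 7.29 with 102S, with no overlap, a difference of 0.50 ± 0.11 and an adjusted p of 0.0117 in limma. Mrpl14, which binds the assembly factor MALSU1, was higher by 0.60 ± 0.16 and its groups did not overlap, with 7.29 as the lowest array of MCC and 6.99 as the highest of 102S. Mrpl16 was higher by 0.53 ± 0.14 and Mrpl48 by 0.51 ± 0.13, with limma adjusted p-values of 0.0292, 0.0208 and 0.0176 for these last 3 genes. Their means with 102S were 6.87 ± 0.12, 7.47 ± 0.13 and 7.95 ± 0.15 log2 (SD, n = 3). All 5 had their lowest mean in the 0.2 µg 102S group, as did Mrpl45, Mrps6 and Mrpl27.

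**Figure D3:**
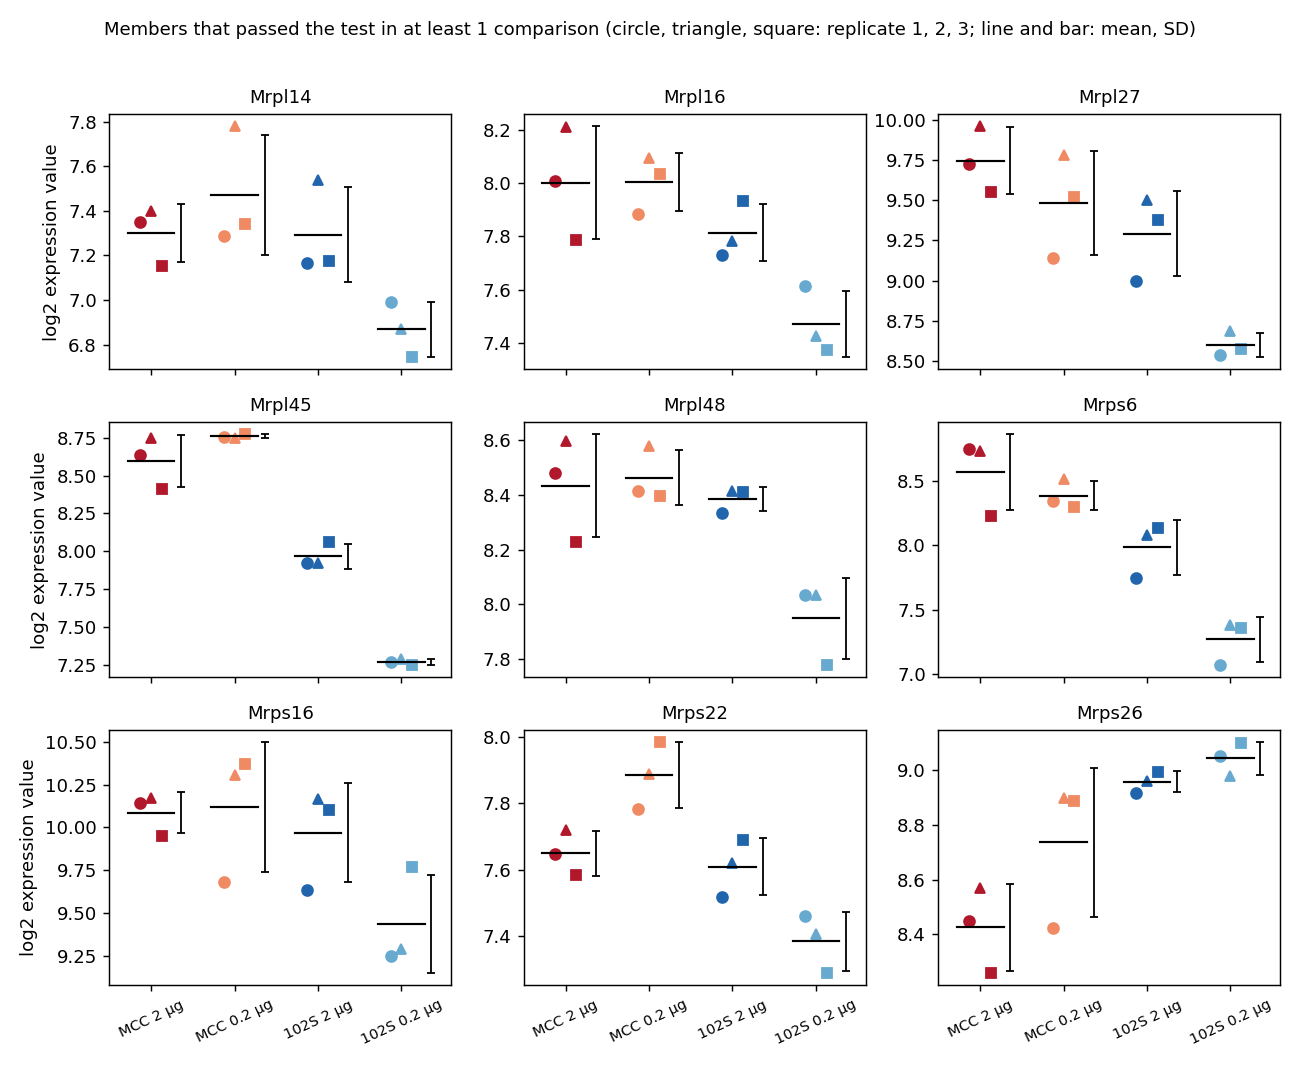
Each panel plots the log2 values of 1 of the 9 members that passed the test in at least 1 comparison, for the 4 groups, with circle, triangle and square for replicates 1, 2 and 3 and the group mean and SD (n = 3) as line and bar. The axes do not start at 0 and differ between panels. In 8 panels the group with 0.2 µg of 102S is lowest, and in the panel of Mrps26 it is highest.

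These calls depended on the arrays kept. Without replicate 1 of 0.2 µg MCC, 22 members were called higher, and genes called in either direction went from 1280 to 1784 of 7945. Without replicate 2 of that group 4 members and 720 genes were called, without its replicate 3 there were 5 and 844, and without replicate 2 of 0.2 µg 102S there were 5 and 785. Mrps16 was no longer called without replicates 2 or 3 of 0.2 µg MCC, without replicates 1 or 2 of 0.2 µg 102S, without any 1 array of 2 µg MCC or without replicates 2 or 3 of 2 µg 102S, and its adjusted p reached 0.171. Mrpl14 was lost without any 1 array of 0.2 µg 102S or without replicate 2 of 0.2 µg MCC. Mrpl16 was lost without replicates 2 or 3 of 0.2 µg MCC or replicate 2 of 0.2 µg 102S, Mrpl48 without replicate 2 of 0.2 µg MCC and Mrps22 without its replicate 3, with adjusted p-values up to 0.140. Within replicate numbers, the median member difference was 0.08 for replicate 1, 0.41 for replicate 2 and 0.21 for replicate 3, and the β-actin difference of MCC minus that of 102S was -0.02, 0.89 and -0.02 for the same pairs. Without the replicate 1 array of every group, 9 members and 974 genes were called. Mrpl45 (1.50), Mrps6 (1.03), Mrpl27 (1.02), Mrps16 and Mrpl16 were among the 9, Mrpl14, Mrpl48 and Mrps22 were lost at adjusted p-values of 0.0531, 0.0689 and 0.0601, and Mrpl17, Mrpl42, Mrpl52 and Mrps21 were gained. Without the filter on low values Mrps16 was lost too (adjusted p = 0.0522 in limma).

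At the high dose, the peptides differed in 3 members. Mrpl45 and Mrps6 were higher with MCC and Mrps26 was lower, and 71 did not pass. All genes tested were higher in 4.43% and lower in 6.83%, and the members' counts were below these shares. At an unadjusted p under 0.05 there were 10 members and 1968 genes. The median member difference was -0.10 log2, with -0.07 in the large and -0.11 in the small subunit, beside -0.05 over all genes, and 20 of 74 were positive, beside 43.0% of genes. Of the 71 not called, 67 had a 95% interval within 1 log2 of 0 and 32 within 0.5.

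Mrpl45 read 8.64, 8.75 and 8.41 log2 with 2 µg of MCC and 7.92, 7.92 and 8.06 with 2 µg of 102S. The groups did not overlap, and the difference was 0.63 ± 0.11, or 1.55-fold (limma adjusted p = 0.00417). Mrps6 read 8.74, 8.73 and 8.22 with MCC and 7.74, 8.08 and 8.13 with 102S, without overlap but with replicate 3 of MCC close to 102S. The difference was 0.58 ± 0.17 (limma adjusted p = 0.0470). Mrps26, a small subunit protein without a bacterial counterpart, read 8.45, 8.57 and 8.26 with MCC and 8.92, 8.96 and 8.99 with 102S. It was the 1 member called lower here, with a difference of -0.53 ± 0.14 (limma adjusted p = 0.0282), and at the low dose its difference was -0.31 ± 0.14 and did not pass.

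The Mrps6 call at the high dose was lost without any 1 array of 2 µg 102S, replicates 1 or 2 of 2 µg MCC, replicates 1 or 2 of 0.2 µg 102S or replicates 2 or 3 of 0.2 µg MCC, with adjusted p-values up to 0.171. That of Mrps26 was lost without any 1 array of 2 µg 102S or without replicates 1 or 3 of 2 µg MCC, with adjusted p-values up to 0.102. Without any 1 of the 3 arrays of 2 µg 102S, or without replicate 1 of 2 µg MCC, 1 member was left. Without the replicate 1 array of every group, 0 were called, and the adjusted p of Mrpl45 was 0.0822. Without the filter on low values Mrps6 was lost too, with an adjusted p of 0.0677. Same-numbered arrays deviated together in this comparison, and with the replicate as a block 8 members were called, as were 1520 of the 7945 genes. Mrpl27 joined those higher, with a difference of 0.45 and an adjusted p of 0.0201, and Mrpl38, Mrpl58, Mrps18b and Mrps24 joined those lower. The median member difference within replicates was 0.06, 0.01 and -0.39 for replicates 1, 2 and 3, so only the replicate 3 pair gave a negative median. With arrays left out, the median member difference of the fit ran from -0.19 to 0.0057, so its sign was not stable.

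The members just outside the call at the high dose were mostly lower with MCC. Mrpl38 read 5.71, 5.92 and 5.23 with 2 µg of MCC and 6.11, 6.20 and 6.44 with 2 µg of 102S, a difference of -0.63 ± 0.20 that did not pass (limma adjusted p = 0.0648). Mrps18b, 1 of 3 proteins related to bacterial S18, read 6.58, 6.87 and 6.41 with MCC and 7.09, 7.06 and 7.27 with 102S, a difference of -0.52 ± 0.18 (adjusted p = 0.0857 in limma). Its relative Mrps18a differed by -0.05 ± 0.16 and Mrps18c by -0.01 ± 0.19, neither of which passed. Mrps28 read 6.79, 6.94 and 6.37 with MCC and 7.11, 7.30 and 7.53 with 102S, a difference of -0.61 ± 0.24 (limma adjusted p = 0.147). In these 3 genes, as in Mrps26, the highest of the 4 group means lay with 0.2 µg of 102S and the lowest with 2 µg of MCC, the reverse of Mrps6 and Mrpl27.

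The dose of MCC changed 0 members past the threshold in limma, with 0.717% of all genes higher and 1.21% lower at 2 µg than at 0.2 µg. At an unadjusted p under 0.05 there were 14 members and 1435 genes. The median member difference was -0.22 log2, with -0.22 in the large and -0.18 in the small subunit, beside -0.03 over all genes, and 13 of 74 were positive, beside 46.1% of genes. The 95% interval lay within 1 log2 of 0 in 64 of the 74 and within 0.5 in 23, so moderate changes of single genes were not detectable with these arrays.

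The 3 members called at 2 µg did not pass here. Mrpl45 differed by -0.16 ± 0.11 (95% interval -0.41 to 0.08), Mrps6 by 0.18 ± 0.17 and Mrps26 by -0.31 ± 0.14. The most negative difference was in Mrps28, which read 6.79, 6.94 and 6.37 at 2 µg and 7.16, 7.64 and 7.88 at 0.2 µg, a difference of -0.86 ± 0.24 (limma adjusted p = 0.107). The groups did not overlap, and the spread within each was wide.

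The member median within replicates was 0.02, -0.20 and -0.52 for the dose of MCC in replicates 1, 2 and 3, while the difference in β-actin was -0.24, -1.11 and -1.61. The replicate with the most negative β-actin difference also had the most negative member median, and with the β-actin difference as a covariate the median over members was -0.0020. The β-actin gap of the MCC doses did not overlap, at 0.50 to 0.72 with 2 µg and 0.74 to 2.33 with 0.2 µg. Dose and RNA quality therefore cannot be told apart in this median. Same-numbered arrays deviated together for the dose of MCC as well. With the replicate as a block 863 of the 7945 genes and 7 of the 74 members were called, with Mrpl9 higher and Mrpl13, Mrpl23, Mrpl38, Mrps18b, Mrps24 and Mrps28 lower. Without replicate 1 of 0.2 µg MCC, 1 member was called higher and 10 lower, with 663 genes called in either direction. Without replicate 3 of 0.2 µg 102S, Mrps28 was called with an adjusted p of 0.0495. Without the replicate 1 array of every group 3 were called lower, namely Mrpl11, Mrpl23 and Mrps28.

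The dose of 102S raised 2 members. Mrpl45 read 7.92, 7.92 and 8.06 log2 at 2 µg and 7.27, 7.28 and 7.24 at 0.2 µg, a difference of 0.70 ± 0.11, or 1.63-fold (limma adjusted p = 0.00364). Mrps6 read 7.74, 8.08 and 8.13 at 2 µg and 7.07, 7.38 and 7.36 at 0.2 µg, a difference of 0.71 ± 0.17, or 1.64-fold (limma adjusted p = 0.0381). Neither gene's groups overlapped, and of all genes 3.3% were higher and 0.529% lower. Mrpl27 differed by 0.69 ± 0.18 and did not pass (adjusted p = 0.0558 in limma). At an unadjusted p under 0.05 there were 9 members and 1155 genes.

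The median over members was 0.14 log2, with 0.15 in the large and 0.11 in the small subunit, beside 0.01 over all genes, and 57 of 74 were positive, beside 51.4% of genes. Within replicates 1, 2 and 3 the median was 0.08, 0.23 and 0.08, while the difference in β-actin was 0.05, 0.40 and -0.73. The part of RNA quality in these medians was not tested. Of the 72 members not called, 70 had a 95% interval within 1 log2 of 0 and 30 within 0.5. The Mrps6 call was lost without any 1 array of 0.2 µg 102S, without replicates 2 or 3 of 2 µg 102S or without replicates 2 or 3 of 0.2 µg MCC, with adjusted p-values up to 0.194. Without the filter on low values it was lost as well (adjusted p = 0.0538 in limma). Without the replicate 1 array of every group, Mrpl45 differed by 0.73 with an adjusted p of 0.0688, and Mrpl27 was the 1 member called. This comparison and the peptide comparison at the low dose share the 3 arrays of 0.2 µg 102S, so the calls of Mrpl45 and Mrps6 in both are not independent.

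The dependence of the peptide difference on the dose passed the test in 1 member. For Mrpl45, the MCC minus 102S difference was 0.63 at 2 µg and 1.50 at 0.2 µg, and the interaction, the first minus the second, was -0.86 ± 0.16 (limma adjusted p = 0.0254). The 4 group means behind it were 8.60 ± 0.17 and 8.76 ± 0.01 log2 with 2 and 0.2 µg of MCC, and 7.97 ± 0.08 and 7.26 ± 0.02 with 2 and 0.2 µg of 102S (SD, n = 3). The step between doses passed the test for 102S, at 0.70, and not for MCC, at -0.16 (95% interval -0.41 to 0.08). The call was lost without replicates 1 or 2 of 0.2 µg 102S, replicates 2 or 3 of 2 µg 102S, replicates 2 or 3 of 0.2 µg MCC or replicate 1 of 2 µg MCC, at adjusted p-values from 0.0630 to 0.106. It was also lost without the replicate 1 array of every group, at -0.91 with an adjusted p of 0.15. The value itself stayed between -0.94 and -0.77 whichever arrays were left out.

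Among all genes the interaction was higher in 0.0629% and lower in 0.843%. Of the 73 members not called, 44 had a 95% interval within 1 log2 of 0 and 4 within 0.5, so the interaction was measured less well than the other comparisons. There were 9 members and 766 genes at an unadjusted p under 0.05. The median member interaction was -0.35 log2, with -0.38 in the large and -0.31 in the small subunit, beside -0.05 over all genes, and 6 of 74 were positive, beside 44.1% of genes. With the β-actin difference as a covariate the median was -0.15, and the part of RNA quality in the interaction was not tested. Mrps6 had an interaction of -0.53 ± 0.24 and Mrpl52 the most negative, -1.10 ± 0.44, and neither passed (limma adjusted p-values 0.559 and 0.490). With the replicate as a block Mrpl52 passed as well (limma adjusted p = 0.0412).

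**Figure D4:**
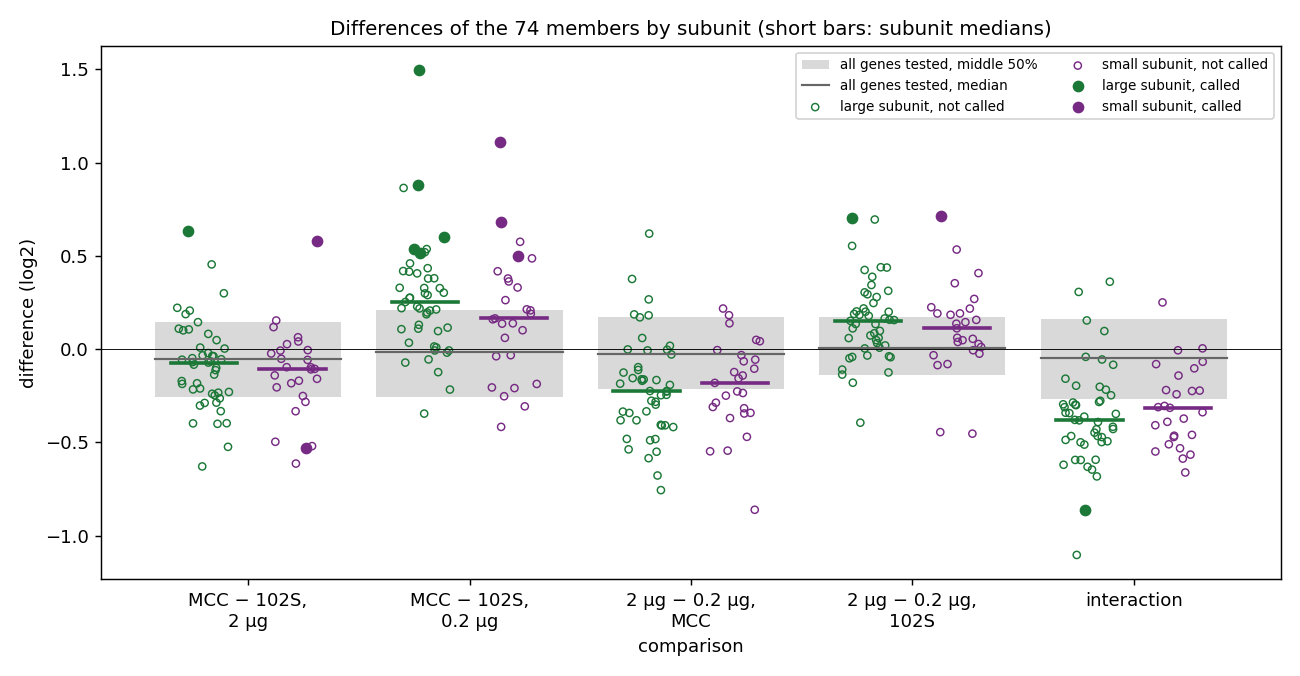
Points are the log2 differences of the 47 large (green) and 27 small (purple) subunit genes in each of the 5 comparisons, filled where the limma adjusted p was under 0.05, with subunit medians as short coloured bars. Grey boxes span the middle 50% of all 7945 genes tested and the grey line is their median. At 0.2 µg the subunit medians are 0.25 and 0.16, above the median of all genes at -0.01, and for the interaction they are -0.38 and -0.31.

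By subunit, the large subunit had 5 of 47 and the small subunit 3 of 27 members called higher at the low dose, beside 9.09% of all genes. At the high dose the large subunit had 1 higher, and the small subunit 1 higher and 1 lower, beside 4.43% and 6.83% of all genes higher and lower. For the dose of 102S each subunit had 1 higher, beside 3.3% of all genes. Mrps18a and Mrps30, whose proteins belong to the large subunit, were called in no comparison, so moving them changes none of these counts. As a rough split by ancestry, genes were classed by the number in the name. The low-dose peptide difference had a median of 0.28 over 27 large subunit genes numbered up to 36 and 0.22 over 20 with higher numbers. It was 0.21 over 15 small subunit genes numbered up to 21 and 0.06 over 11 with higher numbers, with Mrps36 left apart. The number does not always tell whether a protein has a bacterial counterpart, and Mrps18a and Mrps30 were kept in the small subunit by name. The quartiles of these classes overlapped, and no difference between classes was tested.

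Mrps18b, outside these calls, had group means from 6.62 with 2 µg of MCC to 7.59 with 0.2 µg of 102S. Other members with known roles outside these calls varied little between groups or varied with single arrays. Mrpl12, of the stalk that recruits translation factors, had group means between 7.99 and 8.19, and Mrps12, of the decoding centre, between 8.15 and 8.46. Mrpl24, Mrpl3 and Mrpl37 had the smallest ranges of group means in the large subunit, at 0.07, 0.13 and 0.19, and Mrps30, Mrps9 and Mrps7 in the small subunit, at 0.11, 0.14 and 0.16. For Mrpl24 the 95% interval of the low-dose peptide difference was -0.29 to 0.27. Mrpl11, which lies where translation factors bind, read 8.06, 8.98 and 8.96 with 0.2 µg of MCC and 7.92, 8.05 and 8.77 with 0.2 µg of 102S. Its difference of 0.42 ± 0.26 was smaller than the steps between replicates of 1 group. Mrpl44, which has an RNase III-like fold, followed the same arrays, at 8.24, 8.97 and 9.09 with MCC and 8.31, 8.44 and 9.26 with 102S, a difference of 0.10 ± 0.27. Mrpl41, Mrps34 and Mrps36 differed by 0.33 ± 0.22, 0.10 ± 0.17 and 0.42 ± 0.25 at this dose, and none passed.

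Other probe sets of the same genes often, but not always, shared the sign. Of the 74 members 33 had several probe sets, and 27 had several above the filter. Among the called members, Mrpl45, Mrps6, Mrpl27, Mrps16, Mrps22, Mrpl14, Mrpl16 and Mrps26 had 1 probe set each, so their calls could not be compared with another. Mrpl48 had a second, which differed by 0.54 at the low dose without passing (limma adjusted p = 0.115). Over all 114 probe sets above the filter, 11 were called higher and 1 lower at the low dose and 2 in each direction at the high dose, and no member had probe sets called in opposite directions. The sign was shared by all probe sets in 19 of the 27 at the low dose and in 15 at the high dose. Mrpl52, whose leading probe set differed by 0.86 at the low dose without passing (limma adjusted p = 0.0886), had another pair called higher, at 0.91 and 0.94, and the last at -0.07. Another probe set of Mrpl3 was lower by -0.78 at the low dose (limma adjusted p = 0.0251) where the leading one differed by 0.01, and another of Mrps9 was lower by -0.79 at the high dose (0.00979) where the leading one differed by -0.01. Mrpl13 had a second probe set called higher, at 0.56. Which transcript ends these probe sets read was not analysed here.

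Other genes of mitochondrial translation were mostly not called, and the counts lower with MCC were near the shares of all genes lower, 6.83% at the high and 7.02% at the low dose. Of 71 listed genes (ribosomal proteins with other names, translation factors, tRNA synthetases, ribosome assembly and mitochondrial transcription) 48 were tested. The synthetase genes tested included Vars, of the cytosolic valyl-tRNA synthetase, which stayed in the counts and medians below. At the high dose 0 were higher and 3 lower with MCC: the ribosomal RNA methyltransferase gene Mrm1 (-0.77 ± 0.14), the ribosomal RNA chaperone gene Eral1 (-0.67 ± 0.18) and Polrmt (-0.57 ± 0.17), the mitochondrial RNA polymerase. At the low dose 1 was higher, the ribosome recycling factor gene Mrrf (0.67 ± 0.17), and 3 were lower, namely Ears2 (-0.82 ± 0.15), the mitochondrial glutamyl-tRNA synthetase, Qrsl1 (-0.49 ± 0.14), a subunit of the amidotransferase that converts charged glutamyl-tRNA, and Mrm1 (-0.67 ± 0.14). Mrrf was also higher at 2 than at 0.2 µg of 102S (0.71 ± 0.17). Limma adjusted p-values of these calls lay between 0.00327 and 0.0478. No listed gene passed for the dose of MCC or the interaction, with 9 and 3 at an unadjusted p under 0.05. The list's median was -0.17 at the high and -0.11 at the low dose, where that of the ribosomal proteins was -0.10 and 0.22.

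Among like gene groups, the nuclear genes of the respiratory chain and ATP synthase, with their assembly factors, were more often higher than lower with MCC. Of 84 tested, 18 were higher and 0 lower with MCC at the low dose, with a median of 0.32, and 5 were higher and 1 lower at the high dose, with a median of 0.01. Their medians for the dose of MCC, the dose of 102S and the interaction were -0.18, 0.14 and -0.34. Sdhaf1, an assembly factor of succinate dehydrogenase, differed by 1.18 ± 0.14 at the low dose (limma adjusted p = 0.000130), and its interaction was -1.30 ± 0.20 (limma adjusted p = 0.00915). The complex I subunit genes Ndufs8 and Ndufv2 were higher by 0.71 ± 0.13 and 0.60 ± 0.11 at that dose. Of 46 cytosolic ribosomal protein genes tested, 3 were higher and 1 lower at the low dose and 0 higher and 5 lower at the high dose, with medians of 0.03 and -0.04, and their interaction median was -0.10. Of all genes tested, 9.09% were higher and 7.02% lower with MCC at the low dose, and 4.43% higher and 6.83% lower at the high dose. The gene groups are set side by side without a test of the difference between them.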

How the data were processed

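The deposited table gives log2 values, 1 for each probe set on each array. They ran from 1.86 to 14.7, and the log2 scale was inferred from this range. The submitters' processing notes list GCOS 1.4. The authors' summarisation, background correction and scaling of these log2 values were not given in the sources used here. Array medians differed by at most 0.089 log2, so values were used as deposited. Names came from the platform annotation (691 probe sets with several symbols and 1606 with none were not named), and promoters from RefSeq. The 64 controls and probe sets with a mean below the 40th percentile (4.48 log2) were dropped, leaving 13556. limma 3.58.1 (lmFit, eBayes) was run on all 12 arrays (R 4.3.3, intensity trend, 4 group means, 8 residual and 4.16 prior degrees of freedom). Tests were 2-sided, with Benjamini-Hochberg adjustment across these 13556 (threshold 0.05). Arrays carry no read depth, and their number limits the precision: the median SE of a difference was 0.18 log2. The fit was tested on simulated data whose noise was independent between probe sets and arrays. Variation shared by genes or by same-numbered arrays was not simulated.

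The ± values with differences are SE, and those with group means are SD. In each comparison the 6 highest and lowest called members were named, with the 3 largest and smallest ranges per subunit, members with known roles and up to 3 genes per list by smallest p. Mrpl9, Mrpl13, Mrpl17, Mrpl23, Mrpl42, Mrpl52, Mrpl58, Mrps21 and Mrps24 were named after their values were seen. The members and lists were chosen with earlier results of these data known. Ribosomal S6 kinase genes were kept out of the cytosolic list. Same-numbered arrays deviated together for the peptides at 2 µg (r from 0.20 to 0.60) and the dose of MCC (0.20 to 0.56). Some arrays of unlike number did so too, such as replicate 2 of 2 µg 102S with replicate 3 of 2 µg MCC (r = 0.25). A pairing of replicates 2 and 3 is therefore not shown, and the replicate block is given only as an alternative. Alternatives were no filter, median centring, quantile normalization, a replicate block, a β-actin covariate, every tested probe set and arrays left out.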

Additional observations from a re-analysis of the deposited data

Results flagged for a closer look

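Mrpl45 was the 1 member in which the dependence of the peptide difference on the dose passed the test. MCC exceeded 102S by 0.63 log2 at 2 µg and by 1.50 log2 at 0.2 µg, and the first minus the second was -0.86 log2 (limma interaction). Its adjusted p was 0.0254, and it reached 0.15 without the replicate 1 array of every group.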

How the results depend on the processing

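No call of a single member reversed in sign. The median member difference for the peptides at 2 µg ran from -0.19 to 0.0057 with arrays left out. The sign of that median was therefore not stable. Median centring, quantile normalization and counting every tested probe set kept the counts of members called within 1.5 times those given. Without the filter 2, 7, 0, 1 and 1 members were called in the 5 comparisons, from 3, 8, 0, 2 and 1. Mrps6 was then lost for the peptides at 2 µg and the dose of 102S, and Mrps16 for the peptides at 0.2 µg. With the replicate block, members called were 8 for the peptides at 2 µg and 17 at 0.2 µg, 7 and 4 for the doses of MCC and 102S, and 2 for the interaction, and genes called were 1520, 2192, 863, 573 and 212, from 895, 1280, 153, 304 and 72. With the β-actin covariate, members called were 5, 18, 0, 9 and 1 and genes called 2011, 2306, 346, 937 and 191. Among the 18, Mrps18b (-0.48) and Mrps26 (-0.35) were lower with MCC and the rest were higher. Same-numbered arrays did not all deviate together for the peptides at 0.2 µg (r from -0.29 to 0.79) or the dose of 102S (-0.06 to 0.80). In both, the negative value was that of replicate 2. Replicate 1 gave the highest value and replicate 3 was at 0.66 and 0.64. The cause of these moves was not tested. With arrays left out, members called ranged over 0 to 4, 4 to 22, 0 to 11, 1 to 3 and 0 to 1, and genes called over 472 to 1018, 720 to 1784, 42 to 663, 154 to 345 and 43 to 100. With 3 arrays per group, differences near the median SE of 0.18 log2 cannot be resolved for single genes.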
